A study of Homo sapiens with 12 samples.

Results

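The ATP-binding cassette (ABC) drug efflux transporters examined here were 9 genes, ABCB1, ABCC1, ABCC2, ABCC3, ABCC4, ABCC5, ABCC6, ABCC10 and ABCG2. They were taken as a named list of family members linked to the export of drugs and drug conjugates, by matching the Ensembl gene identifiers of the expression tables to gene symbols. All 9 were found among the 57815 genes of the tables.

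The study used RNA sequencing to ask which transcripts depend on the transcription factor NRF2, encoded by NFE2L2, in non-small cell lung cancer lines in which NRF2 is constantly active. A549 and H2023 are labelled lung adenocarcinoma and H460 lung large cell carcinoma, and all 3 lines are labelled as positive for a KEAP1 mutation, in the control libraries too. KEAP1 is the adaptor that normally marks NRF2 for degradation. Each line was transfected with control siRNA or with siRNA to NRF2, and RNA was taken after 48 h, giving 2 libraries per group and 12 libraries in all. The control libraries were biological duplicates, whereas the duplicate NRF2 siRNA libraries were made with 2 different molecules, siRNA 28 and siRNA 30, so that the spread within an NRF2 siRNA group also holds any difference between the molecules. Each line is a single established line. A549 libraries were made after removal of ribosomal RNA and the H2023 and H460 libraries after polyA selection. A549 cells were also kept in high glucose medium and the other lines in low glucose medium. For any contrast of A549 with the other lines, line, medium and library preparation thus cannot be told apart.

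ABC transporters are membrane proteins that use ATP to move substrates across a membrane. ABCB1 (P-glycoprotein) and ABCG2 (breast cancer resistance protein) export a wide range of hydrophobic drugs, whereas the ABCC proteins (multidrug resistance-associated proteins, MRPs) mostly export organic anions, including drugs joined to glutathione, glucuronate or sulphate. NRF2 is known to induce many of the enzymes that make such conjugates. It binds DNA together with a small MAF protein at antioxidant response elements, whose core is TGACNNNGC.

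The libraries differed in composition. NFE2L2 mRNA left with the NRF2 siRNAs was 15.4% (siRNA 28) and 22.7% (siRNA 30) of the control mean in A549, 6.49% and 5.70% in H2023, and 5.36% and 9.99% in H460, and the NRF2 target genes NQO1, GCLM, TXNRD1 and SRXN1 fell in all 3 lines. Mitochondrially encoded transcripts took 0.892 to 1.56% of summed expression in A549 and 11.97 to 22.8% in H2023. In H460 they took 8.56 and 13.1% in the control libraries and 20.8 and 26.0% in the NRF2 siRNA libraries, a shift that runs with the knockdown, and each comparison was also made without these transcripts. The epithelial keratins KRT8 and KRT18 were abundant in every library, whereas EPCAM and CDH1 were at or below 1.19 FPKM in every H460 library. In H2023 the epithelial cadherin CDH1 rose from 12.6 and 8.05 to 65.0 and 58.3 FPKM with NRF2 siRNA (adjusted p = 0.0280, limma), KRT8 went from 1474 and 1303 to 3101 and 2919 without passing the threshold (adjusted p = 0.0819), and the 5 epithelial markers, EPCAM, KRT8, KRT18, KRT19 and CDH1, had a median log2 difference of 0.997 there. Their summed level was 2129 to 2547 FPKM in the H2023 controls and 4624 to 5273 with NRF2 siRNA, and in H460 it was 1142 and 1336 against 1743 and 2606, where none of 4 tested markers passed (median log2 difference 0.40). In A549 the sums overlapped. The part of these shifts in the results was not tested. The alveolar markers NKX2-1, NAPSA, SFTPB and SFTPC summed to at most 1.41 FPKM in any library, so the adenocarcinoma label had no support from these markers. Of 6 matched markers of fibroblasts, endothelium and leukocytes, VWF, PTPRC and CD3E were below 0.5 FPKM in all libraries, and COL1A1 rose in H460 (adjusted p = 0.0329, limma). CD68, a lysosomal protein abundant in macrophages, was at 14.0 and 15.6 FPKM in the A549 controls and 26.6 and 30.7 with NRF2 siRNA (adjusted p = 0.0975), at 36.6 and 39.2 against 16.5 and 29.2 in H460 (adjusted p = 0.141), and overlapped in H2023, so it lay above the controls in A549 and below them in H460 without passing the threshold. The summed level of the 6 was 14.8 and 16.1 against 27.2 and 31.2 FPKM in A549, 44.9 to 52.1 against 54.4 to 61.4 in H2023 and 42.0 to 44.7 against 27.7 to 43.6 in H460, and its part in the results was not tested.

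Promoter windows were matched for 7 of the 9 genes, all but ABCC1 and ABCC3, giving 14 windows that reach from 250 bases before to 50 bases after an annotated start (RefSeq, build GRCh38.p14). The antioxidant response element core, TGACNNNGC on either strand, was found in 3 of these 14 windows, 1 each of ABCC4, ABCC10 and ABCG2, and in 13.3% of all 35116 windows. The sequence of ABCC2 is shown because this gene gave the clearest change with NRF2 siRNA, and those of ABCC4, ABCC10 and ABCG2 because they hold a match. All are the 250 bases before the start, on the gene's own strand, with the match in capitals.
ABCC2, chr10:99782390-99782639, plus strand: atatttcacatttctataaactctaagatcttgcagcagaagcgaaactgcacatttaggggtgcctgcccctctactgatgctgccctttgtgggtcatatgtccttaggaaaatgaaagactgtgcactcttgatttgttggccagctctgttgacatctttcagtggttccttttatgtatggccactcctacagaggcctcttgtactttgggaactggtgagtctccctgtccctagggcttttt
ABCC4, chr13:95301452-95301701, minus strand: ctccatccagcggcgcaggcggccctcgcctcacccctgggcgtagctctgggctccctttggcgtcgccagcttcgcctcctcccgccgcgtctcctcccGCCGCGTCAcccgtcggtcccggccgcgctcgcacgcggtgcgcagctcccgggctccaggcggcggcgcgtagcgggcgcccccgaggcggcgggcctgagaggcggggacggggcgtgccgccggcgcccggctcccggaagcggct
ABCC10, chr6:43427291-43427540, plus strand: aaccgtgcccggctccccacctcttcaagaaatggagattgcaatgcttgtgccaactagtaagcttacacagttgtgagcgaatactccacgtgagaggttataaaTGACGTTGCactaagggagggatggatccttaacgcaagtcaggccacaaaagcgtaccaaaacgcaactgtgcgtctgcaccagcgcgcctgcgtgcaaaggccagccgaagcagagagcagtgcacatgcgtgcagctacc
ABCG2, chr4:88159291-88159540, minus strand: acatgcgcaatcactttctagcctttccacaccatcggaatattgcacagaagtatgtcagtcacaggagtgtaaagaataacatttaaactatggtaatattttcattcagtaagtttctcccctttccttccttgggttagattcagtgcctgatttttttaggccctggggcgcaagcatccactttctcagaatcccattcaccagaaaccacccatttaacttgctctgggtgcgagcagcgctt
The ABCG2 match lies just past the end of the printed stretch, within the 50 bases after that start, and is given here with 10 bases on each side.
ABCG2, match: gcagcgcttgTGACTGGGCaacctgtgcg
The ABCC2 window held none of these letters. A match or its absence in such a short window says nothing about where NRF2 binds.

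Control levels are given in FPKM (fragments per kilobase of transcript, scaled to sequencing depth), which allows levels to be set side by side between genes. ABCC2 and ABCC3 were the most abundant members in A549, at 121 ± 3.11 and 73.6 ± 15.1 FPKM (SD, n = 2, as for all means below), followed by ABCC1 at 26.9 ± 2.37. ABCG2 (20.0 ± 0.3003) and ABCC4 (19.8 ± 0.577) overlapped, and ABCB1, ABCC5, ABCC10 and ABCC6 lay between 3.58 and 6.11 FPKM, with overlap between ABCB1 and ABCC5 and between ABCC10 and ABCC6. In H2023 the order was ABCC3 (118 ± 10.2), ABCC1 (62.4 ± 2.19), ABCC2 (44.1 ± 1.89) and ABCC5 (19.4 ± 1.96), then ABCG2 (12.1 ± 3.39) and ABCC4 (11.5 ± 1.08), which overlapped, then ABCC10 and ABCC6, with ABCB1 listed at 0 in both control libraries. In H460 ABCC1 led at 51.8 ± 4.33 FPKM, ahead of ABCC2 (43.3 ± 4.55) and ABCC3 (38.2 ± 11.1), which overlapped, while ABCG2 (17.2 ± 0.622), ABCC5, ABCC4, ABCC10 and ABCB1 (4.09 ± 0.723) followed without overlap and ABCC6 was at 0.0691 ± 0.0639. The sum over the 9 genes was 292 and 269 FPKM in the A549 controls against 137 and 152 with NRF2 siRNA, 271 and 281 against 246 and 245 in H2023, and 186 and 170 against 164 and 177 in H460. The sum was thus lower with both siRNAs in A549 and in H2023 and overlapped in H460.

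**Figure D1:**
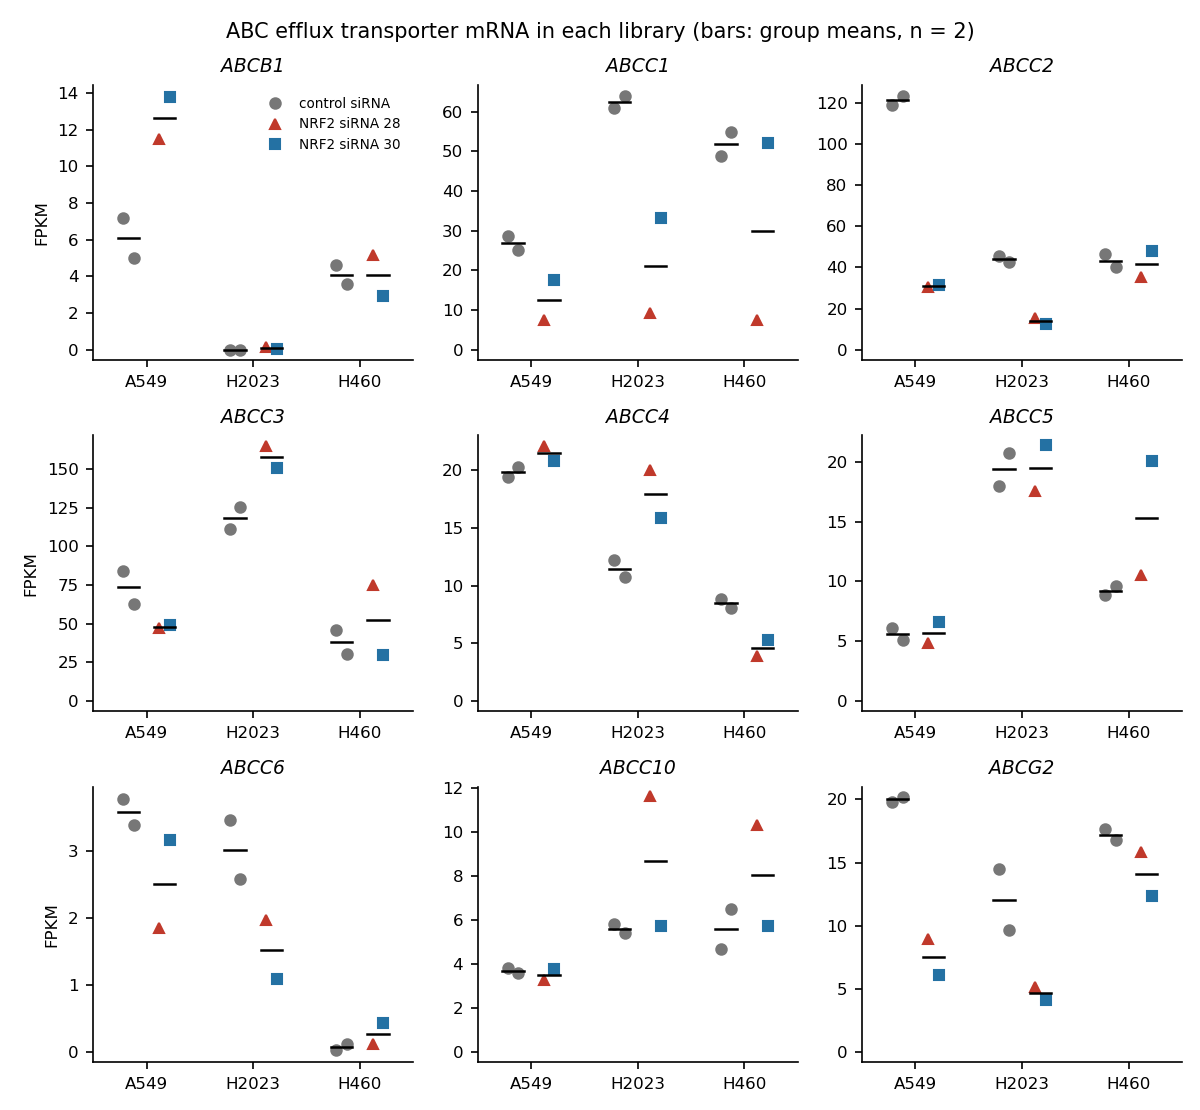
FPKM (vertical axis, from 0) of the 9 transporter genes in each of the 12 libraries, by line; grey points are control siRNA, red triangles NRF2 siRNA 28, blue squares NRF2 siRNA 30, and bars are group means (n = 2). ABCC2 drops from 121 to 31.0 FPKM in A549 and stays near 43 FPKM in H460, and ABCC1 is low with siRNA 28 in every line.

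For each line, NRF2 siRNA was compared with control siRNA by limma on log2(FPKM + 1) over all genes at 1 FPKM or more in at least 2 of that line's 4 libraries, with Benjamini-Hochberg adjusted p under 0.05 as the threshold. In A549, where all 9 members were tested, ABCC2 alone fell, against 0.554% of 13898 tested genes called lower and 0.122% called higher; at an unadjusted p under 0.05 there were 4 members lower and 1 higher, against 4.99% and 8.27% of genes. In H2023, ABCC2 alone fell among 8 tested members, against 0.583% of 14059 genes called lower and 0.327% higher, with 3 members lower and 2 higher at an unadjusted p under 0.05, against 6.68% and 10.2% of genes. In H460, limma called none of 8 tested members, with 1 member lower and none higher at an unadjusted p under 0.05 (16.7% and 17% of genes), although 6.86% of 13446 genes were called lower and 7.12% higher. Leaving out mitochondrial transcripts moved the H460 median over all tested genes from -0.01 to 0.12 on the log2 scale, and lower genes made up 32.9% of its calls instead of 49.1%. The tested members had a median log2 fold change of -0.41 in the A549 comparison, -0.34 in that of H2023 and -0.05 in that of H460, beside 0.02, 0.02 and -0.01 over all tested genes.

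By the plain criterion that both NRF2 siRNA libraries lay outside both control libraries, 5 of 9 members were below in A549 (ABCC1, ABCC2, ABCC3, ABCC6, ABCG2) and 2 above (ABCB1, ABCC4), against 20.5% of tested genes below and 25.2% above. In H2023, 4 of 8 tested members were below (ABCC1, ABCC2, ABCC6, ABCG2) and 2 above (ABCC3, ABCC4), against 22% and 27% of genes. In H460, 2 of 8 were below (ABCC4, ABCG2) and 1 above (ABCC5), against 31.6% and 31.1%. In bulk RNA, fewer cells expressing a gene and less RNA per cell cannot be told apart.

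**Figure D2:**
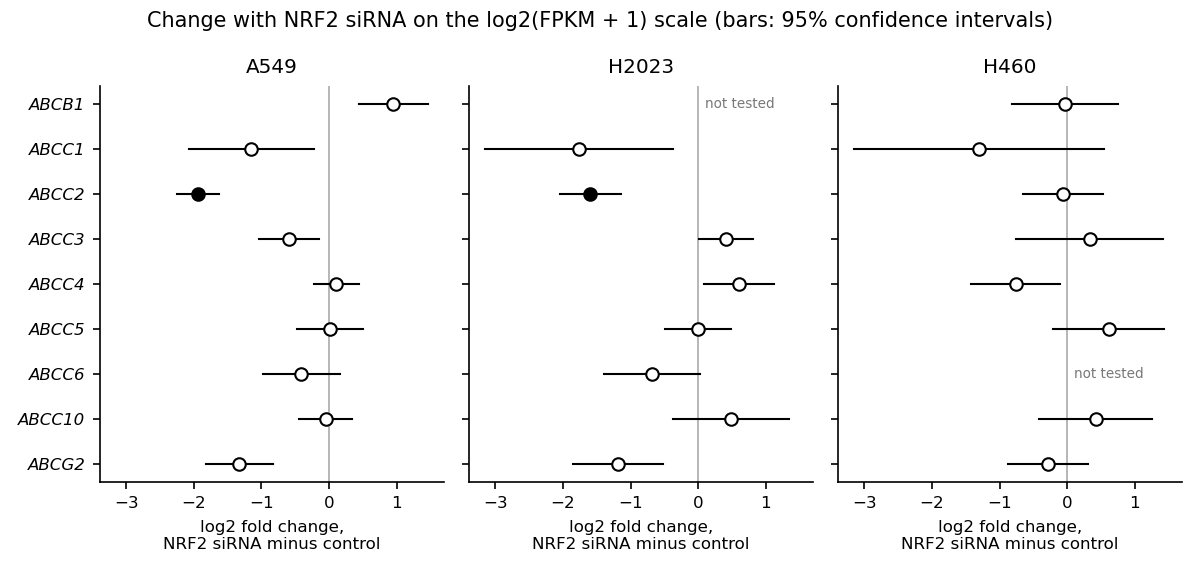
Log2 fold change of each transporter gene, NRF2 siRNA minus control on the log2(FPKM + 1) scale, in A549, H2023 and H460; bars are 95% confidence intervals and filled points have an adjusted p under 0.05 (limma). ABCC2 in A549 and in H2023 are the filled points, at -1.93 and -1.59, and ABCC1 has wide intervals in all 3 lines.

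ABCC2 (MRP2, ENSG00000023839.6, GRCh37 chr10:101542397-101612351, plus strand) is the export pump for glucuronide and glutathione conjugates that the liver uses to pass them into bile. In A549 it was at 118.9 and 123 FPKM with control siRNA, 30.7 with siRNA 28 and 31.3 with siRNA 30. In H2023 it was at 45.4 and 42.7 with control siRNA, 15.4 with siRNA 28 and 12.6 with siRNA 30. Both lines kept 25.3 to 34.8% of the control level with either siRNA, with no overlap between groups. In H460 it was at 46.5 and 40.0 FPKM with control siRNA, 35.4 with siRNA 28 and 48.1 with siRNA 30, and the groups overlapped. In A549 ABCC2 fell by 1.93 ± 0.13 (SE) on the log2 scale (adjusted p = 0.00378, limma) and by 1.59 ± 0.18 in H2023 (adjusted p = 0.0348), whereas the difference in H460 was -0.06 with a 95% confidence interval of -0.65 to 0.53 (adjusted p = 0.888).

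The effect on ABCC2 differed between the lines, although a replicate block gave an adjusted p of 0.0507 (limma). In a fit of all 12 libraries over 11571 genes, the adjusted p for any difference between the 3 effects was 0.0200, and ABCC2 was the only one of 7 tested members with such a call, against 2.51% of genes; at an unadjusted p under 0.05 there were 3 members (ABCC2, ABCC4 and ABCG2), against 21.2% of genes. The log2 effect in H460 stood 1.87 above that in A549 (95% confidence interval 1.31 to 2.43, adjusted p = 0.0159, 3.13% of genes called) and 1.53 above that in H2023 (0.97 to 2.09, adjusted p = 0.0196, 3.32% of genes called). The effects in H2023 and A549 differed by 0.34 (-0.22 to 0.90). H2023 and H460 had like control levels of ABCC2, 44.1 and 43.3 FPKM, and both were prepared by polyA selection. In the same H460 libraries GCLM, a subunit of the glutathione synthesis enzyme, fell by 4.01 on the log2 scale (adjusted p = 0.00448). The cause of the difference in ABCC2 between lines was not tested.

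The H2023 call was lost without either control, with adjusted p = 0.355 without control library 0 and 0.296 without control library 1, where the fit assumes that the lone library varied like the other group. It was also lost with no filter (0.165), with a filter at 0.1 FPKM (0.0862) and without the mean-variance trend (0.0567), and the A549 call was lost with no filter (0.118). The adjusted p for a difference between lines was 0.0513 to 0.0766 without any 1 of the 4 A549 libraries, the 2 H2023 controls or the 2 H460 controls.

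ABCG2 (ENSG00000118777.6, GRCh37 chr4:89011302-89152780, minus strand) is a half-transporter that works as a dimer and exports drugs such as topotecan and also urate. A549 control libraries held 19.8 and 20.2 FPKM, the siRNA 28 library 8.95 and the siRNA 30 library 6.07. H2023 control libraries held 14.5 and 9.67 FPKM, the siRNA 28 library 5.17 and the siRNA 30 library 4.14. H460 control libraries held 17.6 and 16.8 FPKM, the siRNA 28 library 15.8 and the siRNA 30 library 12.3. All 6 NRF2 siRNA libraries were thus below the controls of their own line, by the smallest margin in H460. Of all tested genes, 20.5% were likewise below in A549, 22% in H2023 and 31.6% in H460. The share of genes below in every line was not computed. In the fits of single lines ABCG2 did not pass the threshold. The log2 difference was -1.32 ± 0.20 (SE) in A549 (adjusted p = 0.0796, limma), -1.19 ± 0.27 in H2023 (adjusted p = 0.134) and -0.28 ± 0.25 in H460 (adjusted p = 0.465). The fit of all 12 libraries called it in A549 (adjusted p = 0.0332) and in H2023 (0.0189), and a replicate block called it in H2023 (0.0384). That fit called 102 of 13898 genes lower in A549 and 305 of 14059 in H2023. The block, which pairs libraries by number, called 298 of 14059 genes lower in H2023.

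Averaged over the 3 lines in the fit of all 12 libraries, ABCG2 fell by 0.93 ± 0.14 on the log2 scale (adjusted p = 0.00115), with ABCC2 at -1.195 ± 0.10 (adjusted p = 5.62e-05) and ABCC1 at -1.41 ± 0.44 (adjusted p = 0.0340). These 3 passed of 7 tested members, against 14.5% of genes lower and 15.2% higher, and limma called no member higher, nor was any higher at an unadjusted p under 0.05 (20.9% of genes). The ABCG2 effects of the 3 lines did not pass the test of their difference (adjusted p = 0.158), where H460 stood 1.04 above A549 (95% confidence interval 0.30 to 1.79) and 0.91 above H2023 (0.16 to 1.65). Leaving out either siRNA library moved the adjusted p of ABCG2 past the threshold in A549 (0.00928 without siRNA 28 and 0.0367 without siRNA 30) and in H2023 (0.0168 and 0.0407), but the NRF2 siRNA group is then a single library, the spread comes from the controls alone and the library is assumed to vary like them, so these values add no support. It also passed in A549 without mitochondrial transcripts (0.0300).

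ABCC1 (MRP1, ENSG00000103222.14, GRCh37 chr16:16042995-16237114, plus strand) exports glutathione conjugates, including leukotriene C4, and drugs such as doxorubicin. It separated the 2 siRNA molecules. In A549 it was at 28.5 and 25.2 FPKM with control siRNA, 7.43 with siRNA 28 and 17.6 with siRNA 30. In H2023 it was at 60.9 and 64.0 with control siRNA, 9.19 with siRNA 28 and 33.2 with siRNA 30. In H460 it was at 48.8 and 54.9 with control siRNA, 7.56 with siRNA 28 and 52.1 with siRNA 30. The level with siRNA 28 was thus below that with siRNA 30 in every line, and in H460 the siRNA 30 library lay between the controls. As a share of the control mean, siRNA 28 left 27.7% in A549, 14.7% in H2023 and 14.6% in H460, and siRNA 30 left 65.5%, 53.2% and 100.5%. Over the 6 NRF2 siRNA libraries with line as a covariate, ABCC1 was lower with siRNA 28 than with siRNA 30, with a log2 difference of -1.84 ± 0.28 (SE, 95% confidence interval -2.501 to -1.18) and an adjusted p of 0.0515 (unadjusted 0.000376, limma), just outside the threshold.

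The comparison of the siRNAs called 0.527% of 11571 genes, with limma calling none of 7 tested members and 2 members (ABCC1 and ABCC5, both lower with siRNA 28) at an unadjusted p under 0.05, where 22.5% of genes stood in either direction and 8.96% lower with siRNA 28. ABCC1 ranked at place 20 by p among genes lower with siRNA 28. It passed the threshold without mitochondrial transcripts (adjusted p = 3.12e-06) and without the A549 library of siRNA 28 or siRNA 30 (0.0127 and 0.0125), which leaves the contrast to H2023 and H460. Over 11 alternatives its adjusted p went up to 0.527, reached without a filter, and the call was made in 3 of them. Without any 1 of the 4 NRF2 siRNA libraries of H2023 and H460, limma called 0 genes between the siRNAs, with 1843 to 2143 genes at an unadjusted p under 0.05. NFE2L2 itself differed by -0.38 between the molecules (95% confidence interval -0.90 to 0.15, adjusted p = 0.359), and ABCC2 by -0.07 (-0.48 to 0.34, adjusted p = 0.849). For each line alone, the log2 difference of ABCC1 between NRF2 siRNA and control was -1.15 ± 0.37 in A549 (adjusted p = 0.291), -1.76 ± 0.55 in H2023 (adjusted p = 0.217) and -1.31 ± 0.77 in H460 (adjusted p = 0.283). With a replicate block ABCC1 passed in H2023 (0.0485) and in H460 (0.0460). This block pairs libraries by number, although the numbers were not taken to pair them. It called 711 of 14059 genes in H2023 and 3177 of 13446 in H460.

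The averaged ABCC1 call rested on single libraries. Its adjusted p was 0.0684 to 0.0914 without any 1 of the 6 controls or the siRNA 28 library of A549 or of H2023. Within lines, the adjusted p of ABCC1 was 0.00994 (A549), 0.000102 (H2023) and 0.00420 (H460) without siRNA 30, and 0.0119 in H2023 without siRNA 28, while its difference in H460 was 0.01 without siRNA 28. In these fits the spread comes from the 2 controls alone and the lone siRNA library is assumed to vary like them, and the siRNA libraries differed widely (7.56 against 52.1 FPKM in H460), so they add no support.

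**Figure D3:**
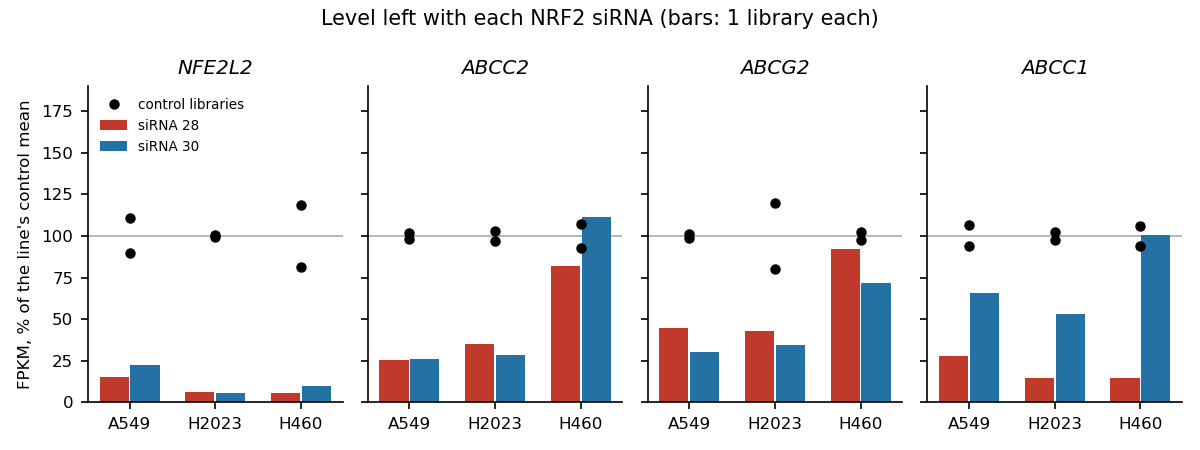
FPKM in each NRF2 siRNA library as a percentage of the mean of that line's control libraries (vertical axis, from 0), for NFE2L2, ABCC2, ABCG2 and ABCC1; red bars are siRNA 28 and blue bars siRNA 30, each a single library, and black points are the control libraries. NFE2L2 is between 5.36 and 22.7% in all 6 libraries, whereas ABCC1 is between 14.6 and 27.7% with siRNA 28 and between 53.2 and 100.5% with siRNA 30.

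ABCC3 (MRP3, ENSG00000108846.11, GRCh37 chr17:48712138-48769614, plus strand) exports glucuronide conjugates and bile salts across the basolateral membrane. With control siRNA A549 held 84.2 and 62.9 FPKM, against 46.8 with siRNA 28 and 48.9 with siRNA 30. With control siRNA H2023 held 111 and 126 FPKM, against 165 with siRNA 28 and 151 with siRNA 30. With control siRNA H460 held 46.0 and 30.4 FPKM, against 75.0 with siRNA 28 and 29.7 with siRNA 30. Both siRNA libraries were below the controls in A549 and above them in H2023, and in H460 the siRNA 28 library stood apart from the other 3. None of these differences passed the threshold. The log2 difference was -0.60 for A549 (95% confidence interval -1.04 to -0.16, adjusted p = 0.264, limma), 0.41 for H2023 (0.02 to 0.81, adjusted p = 0.282) and 0.33 for H460 (-0.76 to 1.42, adjusted p = 0.651). Between lines, the effects on ABCC3 gave an adjusted p of 0.378.

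ABCC4 (MRP4, ENSG00000125257.9, GRCh37 chr13:95672089-95953729, minus strand) exports cyclic nucleotides, prostaglandins and nucleotide analogues. In A549 it was at 19.4 and 20.3 FPKM with control siRNA, 22.1 with siRNA 28 and 20.8 with siRNA 30. In H2023 it was at 12.2 and 10.7 with control siRNA, 20.1 with siRNA 28 and 15.9 with siRNA 30. In H460 it was at 8.85 and 8.09 with control siRNA, 3.92 with siRNA 28 and 5.31 with siRNA 30. The NRF2 siRNA libraries lay above both controls in A549 and H2023 and below both in H460. The log2 differences were 0.11 (95% confidence interval -0.22 to 0.44, adjusted p = 0.779, limma), 0.60 (0.08 to 1.12, adjusted p = 0.248) and -0.76 (-1.42 to -0.10, adjusted p = 0.107), and none passed the threshold. The fit of all 12 libraries called ABCC4 in H460 (adjusted p = 0.0112), where it called 2256 of 13446 genes lower and 2329 higher. The effect in H460 was lower than that in H2023 by 1.36 on the log2 scale (95% confidence interval of the difference -1.95 to -0.77, adjusted p = 0.0288), while the test over all 3 lines gave an adjusted p of 0.0507.

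ABCC5 (MRP5, ENSG00000114770.12, GRCh37 chr3:183637722-183735727, minus strand) exports cyclic GMP and nucleotide analogues. A549 control libraries held 6.12 and 5.08 FPKM, the siRNA 28 library 4.84 and the siRNA 30 library 6.57. H2023 control libraries held 17.98 and 20.8 FPKM, the siRNA 28 library 17.5 and the siRNA 30 library 21.4. H460 control libraries held 8.86 and 9.57 FPKM, the siRNA 28 library 10.6 and the siRNA 30 library 20.1. The siRNA 30 library of H460 stood apart, and the groups overlapped in A549 and H2023. The log2 differences were 0.02 (95% confidence interval -0.47 to 0.50), 0.00 (-0.48 to 0.49) and 0.61 (-0.21 to 1.43), with adjusted p = 0.983, 0.995 and 0.259 (limma). Without the H460 library of siRNA 28 the log2 difference of ABCC5 was 1.04 in H460 (adjusted p = 0.0283) and 0.35 on average (adjusted p = 0.0462), where the lone siRNA 30 library, the one that stood apart, is assumed to vary like the other groups. The antisense gene ABCC5-AS1 was below 0.2 FPKM in all libraries.

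ABCC10 (MRP7, ENSG00000124574.10, GRCh37 chr6:43395104-43418165, plus strand) exports taxanes and glucuronide conjugates. With control siRNA A549 held 3.79 and 3.57 FPKM, against 3.29 with siRNA 28 and 3.75 with siRNA 30. With control siRNA H2023 held 5.81 and 5.42 FPKM, against 11.7 with siRNA 28 and 5.75 with siRNA 30. With control siRNA H460 held 4.70 and 6.49 FPKM, against 10.4 with siRNA 28 and 5.73 with siRNA 30. The siRNA 28 libraries of H2023 and H460 were high, while siRNA 30 lay within the controls in all 3 lines. The log2 differences from control were -0.05 (95% confidence interval -0.45 to 0.34), 0.48 (-0.37 to 1.34) and 0.42 (-0.41 to 1.26), with adjusted p = 0.920, 0.527 and 0.437 (limma), and siRNA 28 exceeded siRNA 30 by 0.51 (-0.07 to 1.08, adjusted p = 0.268). Without the siRNA 30 library of H2023 the difference there was 0.94 (adjusted p = 0.0359), with the lone siRNA 28 library assumed to vary like the controls.

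ABCC6 (MRP6, ENSG00000091262.10, GRCh37 chr16:16243422-16317379, minus strand) lies next to ABCC1 and is known for its part in the release of ATP from liver cells. In A549 it was at 3.77 and 3.39 FPKM with control siRNA, 1.86 with siRNA 28 and 3.16 with siRNA 30. In H2023 it was at 3.47 and 2.57 with control siRNA, 1.97 with siRNA 28 and 1.09 with siRNA 30. In H460 it did not exceed 0.429 FPKM in any library and was not tested. The siRNA libraries were below the controls in A549 and H2023, with log2 differences of -0.41 (95% confidence interval -0.98 to 0.16, adjusted p = 0.513, limma) and -0.68 (-1.39 to 0.02, adjusted p = 0.307). Its near-identical partial copies ABCC6P1 and ABCC6P2 were listed at up to 0.811 and 1.61 FPKM, and reads shared with them leave the ABCC6 level uncertain.

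ABCB1 (ENSG00000085563.10, GRCh37 chr7:87132333-87342639, minus strand) encodes the pump whose gain underlies classical multidrug resistance. A549 control libraries held 7.20 and 5.02 FPKM, the siRNA 28 library 11.5 and the siRNA 30 library 13.8. H460 control libraries held 4.60 and 3.58 FPKM, the siRNA 28 library 5.18 and the siRNA 30 library 2.93. In H2023 it was listed at 0 in both controls, 0.140 with siRNA 28 and 0.0167 with siRNA 30, and was not tested. In A549 both siRNA libraries were above both controls and the groups did not overlap, whereas in H460 the controls lay between the siRNA libraries. The log2 difference in A549 was 0.95 ± 0.21 (SE), with a 95% confidence interval of 0.44 to 1.46 and an adjusted p of 0.171 (limma), so it did not pass the threshold. In H460 it was -0.04 (-0.82 to 0.75, adjusted p = 0.950). RUNDC3B, which overlaps ABCB1 on the other strand, did not exceed 0.487 FPKM in any library.

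Control libraries of H2023 and H460, both made by polyA selection, were compared directly in a fit of these lines' 8 libraries over 15282 genes. ABCB1 passed the filter only through the H460 libraries and ABCC6 only through those of H2023, so their values are a description with no test. ABCB1 was at 4.60 and 3.58 FPKM in the H460 controls and listed at 0 in those of H2023. ABCC6 was at 0.0239 and 0.114 FPKM in the H460 controls and at 3.47 and 2.57 in those of H2023. Of the 7 other members, ABCC3 was lower in H460, with a log2 difference of -1.63 ± 0.40 (SE, adjusted p = 0.0160, limma), and so was ABCC5, at -0.99 ± 0.29 (adjusted p = 0.0325). These 2 were also the members lower at an unadjusted p under 0.05 (23% of genes), and none was higher with or without adjustment, against 16.6% of genes called higher and 18% lower after adjustment and 22.3% higher at an unadjusted p. ABCC1, ABCC2, ABCC4, ABCC10 and ABCG2 did not pass, with ABCC2 at -0.03 (95% confidence interval -0.51 to 0.45) and ABCG2 at 0.50 (-0.08 to 1.08, adjusted p = 0.157). ABCC3 lost its call without either H2023 control (adjusted p = 0.0684 without library 0 and 0.0898 without library 1) or H460 control 1 (0.101), and ABCC5 lost its call without either H2023 control (0.104 and 0.164) or either H460 control (0.143 and 0.103).

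**Figure D4:**
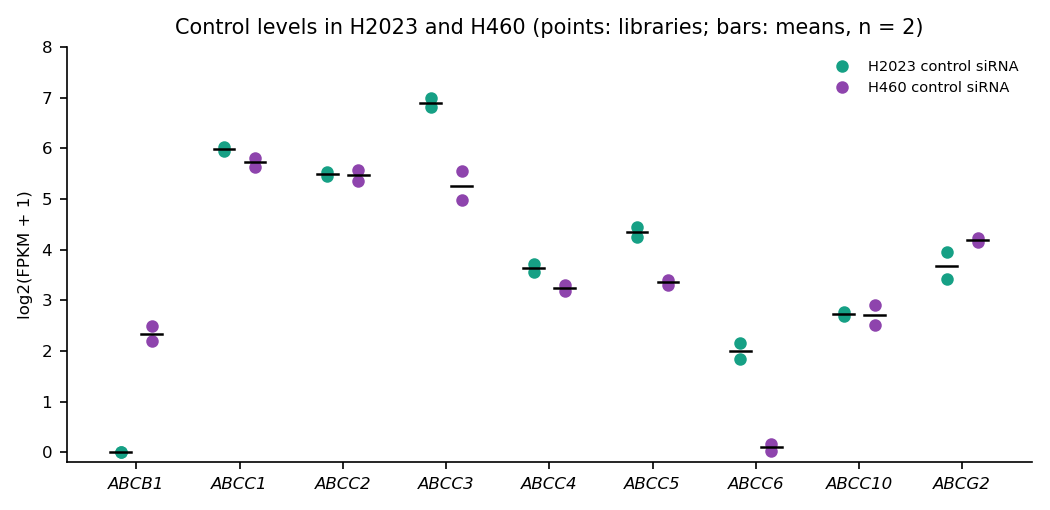
Control levels of the 9 transporter genes on the log2(FPKM + 1) scale in H2023 (green) and H460 (purple); points are libraries and bars are means (n = 2). ABCB1 is at 0 in H2023 only, ABCC6 is near 0 in H460 only, ABCC3 and ABCC5 are higher in H2023, and ABCC2 is alike in both.

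The transcripts most like ABCC2, ABCC1 and ABCC3 were found by the Pearson correlation of log2(FPKM + 1), each value taken as its difference from the mean of its line, over 12 libraries and 11571 genes. The values of a library share its depth and composition, so these correlations are a description. ABCC2 was followed closely by SRGN (0.96), ALDH3A2 (0.96), TSKU (0.94) and EPHX1 (0.94), and its correlation with ABCG2 was 0.93. SRGN, the core protein of a secreted proteoglycan, was at -1.93 (A549), -1.01 (H2023) and 0.03 (H460) on the log2 scale, and ALDH3A2, a fatty aldehyde dehydrogenase, had -1.31, -1.34 and -0.17.

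ABCC1 was followed by DCAF12 (0.98), ITPRIPL2, ADAM17, JOSD1 and CDV3 (0.96 each). These genes were picked for their likeness to ABCC1, so a lower siRNA 28 library in each line was fixed by the choice. It adds no support for a difference between the molecules. In CDV3, siRNA 28 differed from the control mean by -1.44, -1.65 and -2.12 on the log2 scale in A549, H2023 and H460 and siRNA 30 by -0.05, -0.18 and 0.35. For ADAM17, the protease that sheds membrane-bound cytokines and growth factors, the same differences were -0.73, -1.41 and -1.45 with siRNA 28 and -0.31, -0.90 and 0.01 with siRNA 30. Near to ABCC3 were JMJD7, PLCD3, ZNG1B and MAN2C1, at 0.84 to 0.86.

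The counts of the gene lists that follow stand against 0.554% of all tested genes lower and 0.122% higher in A549, 0.583% and 0.327% in H2023, and 6.86% and 7.12% in H460. Among 39 other ABC family genes, of which 20 were tested in each line, 1 fell in A549, 1 in H2023 and 2 in H460, and none, none and 4 rose. The gene that fell in all 3 lines was ABCB6, a porphyrin transporter linked to haem synthesis. It went from 29.5 and 25.6 to 11.3 and 10.3 FPKM in A549, from 45.5 and 42.1 to 10.4 and 13.1 in H2023, and from 61.5 and 53.3 to 29.1 and 29.7 in H460. Its log2 differences were -1.28, -1.83 and -0.94 (adjusted p = 0.0345, 0.0302 and 0.0383, limma). ABCE1, a ribosome recycling factor that transports nothing, fell by 1.10 in H460. Genes that rose in H460 included ABCA3, a lipid transporter of surfactant-storing lamellar bodies (1.56), ABCA7 (2.08) and ABCA8 (1.83), with adjusted p from 0.0151 to 0.0280. The median log2 difference of the tested genes of this list was 0.11, 0.18 and 0.27 in A549, H2023 and H460.

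Among 36 genes for conjugating enzymes and glutathione supply, which make and feed the conjugates that ABCC proteins export, 6 of 25 tested fell in A549, 4 of 25 in H2023 and 8 of 24 in H460, and none, none and 3 rose. GCLC and GCLM, the subunits of the rate-limiting enzyme of glutathione synthesis, fell in all 3 lines, as did glutathione reductase GSR. In A549, H2023 and H460 the log2 differences were -2.33, -2.44 and -2.65 for GCLC, -2.73, -3.13 and -4.01 for GCLM, and -1.17, -2.001 and -1.85 for GSR. SLC7A11, the cystine importer, fell in A549 (-2.44) and in H460 (-2.10) and was at -2.25 in H2023 (adjusted p = 0.0950). EPHX1, an epoxide hydrolase, fell by 1.58 in A549, was at -1.92 in H2023 (adjusted p = 0.0556) and at -0.64 in H460 (adjusted p = 0.0987). The glutathione transferases that rose in H460 were GSTM2, GSTT1 and GSTZ1, with log2 differences of 1.205, 1.35 and 1.06. Others fell there, namely GSTP1, from 359.7 and 386.1 to 136.4 and 190.3 FPKM (adjusted p = 0.0326), and the microsomal transferase MGST1, from 852 and 747 to 407 and 365 FPKM (adjusted p = 0.0405). SLC3A2, the partner chain of SLC7A11, fell in H460 too, by 1.58 on the log2 scale (adjusted p = 0.0314). These transferases and SLC3A2 were named after their values were seen. The list medians were -0.46, -0.26 and 0.00.

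Among 27 drug uptake transporters, which bring drugs and anions into cells, none of 15 tested passed in A549, 1 of 16 rose in H2023 and, leaving out SLC22A4 and SLCO2B1, 2 of 11 fell and 2 rose in H460, where 6.86% of all tested genes fell and 7.12% rose. SLCO1B3, an organic anion importer, rose by 1.61 in H2023, from 1.99 and 1.996 to 7.87 and 8.47 FPKM (adjusted p = 0.0495, limma). In H460, SLC22A5 and SLC22A18 rose (1.08 and 1.67 on the log2 scale), and the nucleoside transporter SLC29A1 and the folate carrier SLC19A1 fell (-1.25 and -1.14). SLC22A4 (0.802 and 0.808 FPKM with control siRNA, 7.99 and 9.65 with NRF2 siRNA) and SLCO2B1 (1.97 and 2.20 against 0.101 and 0.0011) passed the filter in H460 only through the group where they were high, so these values are a description with no test. SLCO2B1 in H2023 went from 13.8 and 25.3 to 0.860 and 2.51 FPKM but did not pass (adjusted p = 0.0601). The list medians were 0.09, 0.33 and -0.42.

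Of 20 regulators of ABC transporter genes, 2 of 18 tested fell in A549, 3 of 17 in H2023 and 5 of 14 in H460 (6.86% of all tested genes), and none rose. Each of these counts includes NFE2L2, whose fall was fixed by the treatment. NFE2L2, the siRNA target, and NR0B1, a nuclear receptor that represses transcription, fell in all 3 lines, NR0B1 with log2 differences of -3.28, -4.16 and -3.28. MAFG, a small MAF partner of NRF2, fell in H2023 (-1.65) and in H460 (-1.58) and was at -1.31 in A549 (adjusted p = 0.0662). KEAP1 and the Y-box factor YBX1 fell in H460 (-1.62 and -1.10). Of 10 matched membrane partners and anchors, CAV1, which forms caveolae, fell in H460 by 1.30 (adjusted p = 0.0265), as 1 of 9 tested, and none passed in A549 or H2023. The medians of the regulators were -0.27, -0.17 and -0.03 and those of the membrane partners -0.10, -0.11 and -0.17.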

How the data were processed

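RNA from A549, H2023 and H460 cells was sequenced in 12 libraries, 2 per line and siRNA group. The deposited values were FPKM per gene and library, which the authors computed from strand-specific paired-end reads. The paper's methods name TopHat and Cufflinks on hg19, whereas the submitters' processing notes list bcl2fastq 2.15.0, cutadapt 1.15, STAR 2.5.3a, Cuffnorm, HTSeq, DESeq2 and the builds hg19 and GRCh37.p13, so which of these made the FPKM was not settled, nor whether counting used strand. The deposited tables of the authors' own comparisons (fold changes and p-values) were not used. FPKM holds no read counts, so depth is unknown in absolute terms. Within a line, the relative depth read from the steps of low values was 92.3 to 107.5% of the first control library, and 12732 to 13909 genes per library reached 1 FPKM.

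Symbols were matched for 96.1% of gene identifiers. Values under 1e-06 FPKM were set to 0. Tests used limma 3.58.1 with a mean-variance trend in R 4.3.3 on log2(FPKM + 1), which understates changes of low genes, for genes at 1 FPKM or more in 2 libraries of the line, for all 12 libraries in 2 libraries of every line, and for the H2023 and H460 controls in any 2 of 8 libraries. Benjamini-Hochberg adjustment covered all tested genes, at 0.05. Of the NRF2 siRNA groups, each library is a different molecule, and p-values measure the spread between these libraries. The fits were checked on data with known changes. Of each gene list, up to 6 genes with the largest mean change among those called in a line were named, and for likeness the 5 nearest genes with a symbol. Some genes that these rules name are not reported here. The members and lists were chosen with earlier results of these data known. Alternatives were a pseudocount of 0.1, no filter or other filters, no trend, median-ratio scaling, leaving out mitochondrial transcripts, a 12-library fit, a replicate block and leaving out each library. Python 3 with pandas read the tables and promoter windows.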

Additional observations from a re-analysis of the deposited data

Results flagged for a closer look

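The effect of NRF2 siRNA on ABCC2 differed between the 3 lines (adjusted p = 0.0200, limma interaction test over 12 libraries), with log2 differences from control of -1.93 (A549), -1.59 (H2023) and -0.06 (H460). The mitochondrial share of expression, which was higher in both NRF2 siRNA libraries of H460 than in its controls, moved with this contrast, and without mitochondrial transcripts the adjusted p was 0.0113, with -2.04 in A549 and 0.089 in H460. The call was lost in 9 of 18 alternatives, with an adjusted p of 0.0507 under a replicate block and 0.0513 to 0.0766 without any 1 of 8 libraries.

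The effect on ABCC4 in H460 differed from that in H2023 (adjusted p = 0.0288, limma). The test over all lines together did not pass (adjusted p = 0.0507). All 4 NRF2 siRNA libraries of these lines lay outside their controls. They lay above them in H2023, as for 27% of tested genes, and below them in H460, as for 31.6%. In the fits of single lines neither line's own difference passed the threshold. The 12-library fit called ABCC4 in H460 (adjusted p = 0.0112), where it called 2256 of 13446 genes lower.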

How the results depend on the processing

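With 2 libraries per group, a value depends on each single library, and the absolute depth behind the FPKM is unknown. Of 618 log2 fold changes of members under the alternatives, 537 kept their direction and side of the threshold, 24 no longer passed it, 21 newly passed it and 36 changed sign. Of 126 tests of a difference between lines, 113 kept their side, 9 lost the call (ABCC2) and 4 gained it (ABCC4). Without a filter no gene was called in A549, H2023 or H460, nor between the siRNAs (0 genes, limma, with 3370, 3661, 5603 and 2963 genes at an unadjusted p under 0.05), so 0 members were lower in A549 and H2023, while 843 genes and 2 members (ABCC2 and ABCC4) were called in the difference between lines and 1 member was lower in the H460 controls, which was ABCC6 and is not taken as a test, leaving 0 of the 7 others. ABCC2 then had an adjusted p of 0.118 in A549 and 0.165 in H2023, and averaged ABCC1 one of 0.161. A filter at 0.1 FPKM gave 28 genes and 0 members lower in H2023 (ABCC2 adjusted p = 0.0862) and 435 genes in H460, and no trend gave 79 genes and 0 members in H2023 (0.0567) and 0 genes between siRNAs (2587 at an unadjusted p under 0.05). The filter in any 2 libraries gave 460 genes and 2 members in the difference between lines and 0 genes between siRNAs (2853 unadjusted), and the filter in every line left ABCB1 and ABCC6 out of the control comparison (0 members higher). A pseudocount of 0.1 gave 2 members in the difference between lines and 25 genes between siRNAs. Leaving out mitochondrial transcripts gave 2 members lower in A549 (ABCC2 and ABCG2), and 647 genes and 1 member (ABCC1) between siRNAs, of which 51.8% were lower with siRNA 28 instead of 21.3%. The 12-library fit gave 2 members lower in A549 and in H2023 (ABCC2 and ABCG2), 1 in H460 (ABCC4, adjusted p = 0.0112), and 748 and 4585 genes in H2023 and H460. The causes were not tested.

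Same-numbered libraries of a line had correlated deviations of 0.058 (A549), 0.293 (H2023) and 0.139 (H460), so the numbers were not taken to pair them. With a replicate block there were 711 genes and 3 members lower in H2023 (ABCC1, ABCC2, ABCG2), 3177 genes and 1 member lower in H460 (ABCC1, adjusted p = 0.0460), and 76 genes and 0 members in the difference between lines (ABCC2 adjusted p = 0.0507).

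Where a library was left out, its group is a lone library assumed to vary like the others. Leaving out 1 library at a time gave 1 to 3 members lower in A549, 0 to 3 in H2023 and 0 to 1 in H460, 0 to 1 higher in H2023, in H460 and on average, 0 to 2 in the difference between lines, 1 to 3 lower in the H460 controls (0 to 2 without ABCC6, which is not taken as a test) and 0 to 1 lower with siRNA 28. Genes called ranged from 41 to 272 in A549, 0 to 1532 in H2023, 0 to 3128 in H460, 3 to 770 in the difference between lines, 2521 to 5834 between controls and 0 to 185 between siRNAs.

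Only differences near 0 or with far-apart libraries changed sign, and none of these had passed the threshold. Without mitochondrial transcripts the log2 difference was -0.071 for ABCC5 in A549, 0.089 for ABCB1 and for ABCC2 in H460, 0.021 for ABCC4 on average and -0.059 for ABCC4 between siRNAs. Median-ratio scaling gave -0.012 and -0.025 for ABCC5 in A549 and H2023, and the pseudocount of 0.1 gave -0.0018 for ABCC4 between siRNAs. Leaving out 1 library, the ranges that crossed 0 were -0.17 to 0.20 (ABCC5) and -0.13 to 0.020 (ABCC10) in A549, -0.13 to 0.14 (ABCC5) in H2023, and -0.37 to 0.29 (ABCB1), -2.62 to 0.010 (ABCC1), -0.28 to 0.15 (ABCC2) and -0.33 to 0.99 (ABCC3) in H460. On average they were -0.17 to 0.27 (ABCC3) and -0.078 to 0.041 (ABCC4), between controls -0.13 to 0.076 (ABCC2) and -0.22 to 0.18 (ABCC10), and between siRNAs -0.23 to 0.12 (ABCC2) and -0.14 to 0.20 (ABCC4).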
